A study of Mus musculus with 6 samples.

Results

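The genes examined here were 10 genes of bone morphogenetic protein (BMP) signaling: the ligand genes Bmp2, Bmp4, Bmp5 and Bmp7, the receptor genes Bmpr1a and Bmpr2, the antagonist genes Grem1 and Nog, the target gene Id1, and Bmp1, which encodes a protease. They were chosen by name, each matched 1 gene identifier, and they made up 10 of the 46603 genes in the count files. Poly(A) RNA was sequenced in bulk from 6 cultures of enteric glial cells (EGCs), which accompany the neurons of the gut wall, derived from neurospheres. Whole intestines of C57BL/6J mouse embryos (E14.5) were dissociated, grown as neurospheres with EGF and FGF, and then plated in medium with serum until confluent. The 3 control cultures received no treatment, and the 3 LPS cultures received 100 ng/ml of lipopolysaccharide (LPS), a component of bacterial cell walls, over 12 h. The comparison asks how EGCs at rest differ from EGCs activated with LPS, and all groups share strain, tissue and culture. The labels number the replicates without saying whether these are separate litters or dishes, so p-values measure the spread between these samples, which may be technical.

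BMPs are secreted dimers that bind a complex of type I and type II serine/threonine kinase receptors. The receptors phosphorylate SMAD1, SMAD5 and SMAD9, which enter the nucleus with SMAD4 and switch on targets such as the Id genes, whose products block basic helix-loop-helix transcription factors. Antagonists such as noggin and gremlin hold the ligands outside the cell and keep them from the receptors. In the gut wall, BMPs pattern the muscle layers and the enteric nervous system, gremlin 1 is made by cells of the muscle and its surroundings, and muscularis macrophages release BMP2 that acts on enteric neurons. BMP1 is named for its purification from bone but is no BMP ligand: it is a tolloid-type metalloprotease that trims procollagens and cleaves the antagonist chordin.

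Promoter sequence was available for 5 of the 10 genes, namely Bmp4, Bmp5, Bmpr1a, Bmpr2 and Grem1, while Bmp1, Bmp2, Bmp7, Nog and Id1 had no entry. The 250 bases before the start of the gene (RefSeq, GRCm38.p6) are shown for Grem1, the antagonist gene that was higher in LPS cultures, and for Bmp4 and Bmp5, ligand genes with lower mean levels in LPS cultures. The windows are chr2:113758649-113758898 on the minus strand for Grem1, chr14:46390670-46390919 on the minus strand for Bmp4 and chr9:75775115-75775364 on the plus strand for Bmp5. Each runs 5′ to 3′ towards the gene, and capitals mark the GC box, GGGCGG on either strand.
Grem1: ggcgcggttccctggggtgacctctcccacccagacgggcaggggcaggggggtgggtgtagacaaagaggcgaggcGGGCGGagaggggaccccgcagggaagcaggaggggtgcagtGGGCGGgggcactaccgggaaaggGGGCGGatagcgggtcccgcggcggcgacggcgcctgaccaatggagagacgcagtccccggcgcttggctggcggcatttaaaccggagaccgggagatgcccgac
Bmp4: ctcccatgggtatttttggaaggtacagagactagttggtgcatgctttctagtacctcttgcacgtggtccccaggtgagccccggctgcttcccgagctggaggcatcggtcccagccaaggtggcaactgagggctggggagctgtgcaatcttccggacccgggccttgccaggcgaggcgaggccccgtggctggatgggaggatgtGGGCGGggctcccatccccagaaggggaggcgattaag
Bmp5: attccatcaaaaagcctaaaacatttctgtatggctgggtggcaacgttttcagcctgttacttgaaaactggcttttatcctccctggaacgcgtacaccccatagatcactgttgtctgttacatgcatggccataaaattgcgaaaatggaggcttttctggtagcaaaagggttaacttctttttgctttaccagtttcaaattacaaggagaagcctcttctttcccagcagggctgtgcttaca
The Grem1 window held 3 GC boxes, had a GC content of 72% and held the palindrome GGCGCC once. The Bmp4 window held 1 GC box and 3 E-boxes (CANNTG), with a GC content of 63.2%. The Bmp5 window held none of the motifs searched and had a GC content of 42.8%. Neither the TATA box (TATAAA) nor the NF-κB consensus motif was found in any of the 3 windows. All motifs were searched on both strands, and no GC box overlapped another motif in these windows. Of 32851 mouse promoter windows of this length, 32.7% held a GC box, 9.59% held GGCGCC, 66.2% an E-box, 12.4% TATAAA and 7.25% the NF-κB consensus. These matches describe the letters of the windows and not sites of binding.

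Library totals lay between 18775316 and 23664312 counts, and 3 counts corresponded to 0.124 to 0.167 CPM (counts per 1000000 counts of the library, after correction for library composition), a floor that covers counting error only. All 10 genes passed the filter on low counts and were among the 15226 genes tested with the edgeR quasi-likelihood test, where adjusted p-values under 0.05 made a call. The replicate 3 libraries of both groups stood apart. The summed level of 12 macrophage markers was 4107, 5321 and 12623 CPM in control replicates 1, 2 and 3, and 4044, 5240 and 20205 CPM in LPS replicates 1, 2 and 3, while the sum of 3 markers of interstitial cells of Cajal was 203, 204 and 68.2 CPM against 87.0, 78.4 and 50.5 CPM. Lyz2 made up most of the macrophage sum, at 2888, 3490 and 7978 CPM in the controls and 2385, 3069 and 11480 CPM in LPS cultures. Of the 12 macrophage markers Adgre1 was called higher (log2 fold change 2.78, edgeR adjusted p = 0.0452). The others were not called, with values from -3.08 (Mrc1, 0.145) and -2.57 (Cx3cr1, 0.342) to 2.67 (Fcgr1, 0.227) and 3.15 (Aif1, 0.107). The median log2 fold change of the 12 was 0.33, and with the replicate block 4 were higher and 3 lower. All 8 glial markers were detected and summed to between 626 and 841 CPM, and 6 mesenchymal markers, led by collagen genes, summed to between 11705 and 12727 CPM in the 6 libraries. The glial and mesenchymal sums also hid changes in single markers. Among the glial markers S100b was called lower (log2 fold change -1.91, edgeR adjusted p = 0.0238) and Fabp7 higher (1.29, 0.0122). Among the mesenchymal markers Pdgfra (0.50), Dcn (0.90) and Pdpn (1.66) were called higher, while Lum (-0.73), Col3a1 (-0.28) and Col1a1 (-0.082) were not called, and with the replicate block 3 were higher and 1 was lower. The sum of 8 smooth muscle markers was 2402 to 2682 CPM in control and 696 to 982 CPM in LPS cultures, and all 7 of them that were tested were called lower. Of 5 mesothelial markers, 1 was called lower, and 4 were with the block. Of the 5 epithelial markers 1 was tested, and Vil1 was at or under the floor in every library. The part of these cell types in the results below was not tested, and in bulk RNA fewer cells of a type and less RNA per cell cannot be told apart.

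Upon LPS, Grem1 and Bmp1 rose, and Bmp5 and Nog fell. Thus 2 of the 10 genes were called higher, against 9.09% of all genes tested, and 2 were called lower, against 6.71%. Together 4 of 10 were called, against 15.8% of all genes. The 10 genes were chosen with earlier results of these data known, so no test over them as a set was made. The groups did not overlap in 4 genes that were higher in LPS (Bmp1, Bmp2, Bmpr2 and Grem1; 19.3% of all genes) and in 4 that were lower (Bmp5, Bmpr1a, Nog and Id1; 19.4% of all genes). The median log2 fold change of the 10 genes was -0.39, against -0.02 over all genes tested. Same-numbered control and LPS libraries deviated together, and with the replicate number as a block 3 of the 10 genes were called higher, adding Bmpr2 (15.4% of all genes), and 5 lower, adding Bmp4, Bmpr1a and Id1 (14.9%), while 30.3% of all genes were called in either direction. Without replicate 3 of both groups, an alternative chosen after seeing the data, all 10 genes were called, 4 higher (22.6% of all genes) and 6 lower (20.4%). With single libraries left out, the number called higher ranged from 0 to 4 and the number called lower from 0 to 4. Over all tested genes these leave-outs gave 379 to 1964 higher and 112 to 1426 lower, against 1384 and 1022 with every library.

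**Figure D1:**
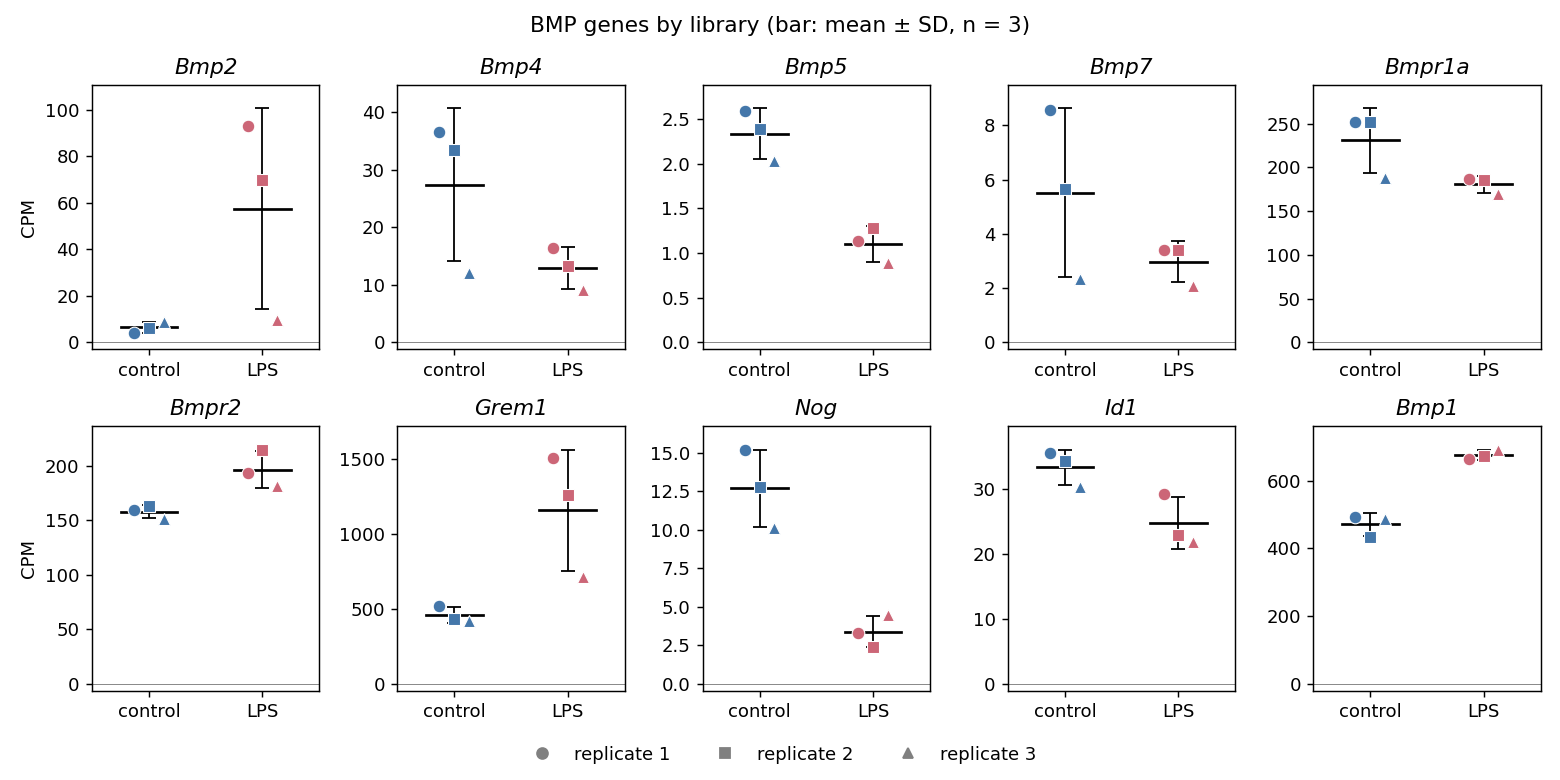
Level of each of the 10 BMP genes in CPM (vertical axes, starting near 0 and differing between panels) in the control and LPS cultures. Symbols are single libraries by replicate number, and bars are the mean ± SD of 3 libraries. The groups do not overlap in 8 of the 10 panels, and LPS replicate 3 lies far below LPS replicates 1 and 2 for Bmp2 and Grem1.

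Among the ligands, Bmp2 (ENSMUSG00000027358, chr2:133552159-133562885, plus strand), which in the gut is known as a macrophage product and a signal to enteric neurons, was measured at 4.20, 6.37 and 8.84 CPM in control replicates 1, 2 and 3. In LPS replicates 1, 2 and 3 it was at 93.2, 69.8 and 9.63 CPM. The first 2 LPS cultures were far above every control, whereas LPS replicate 3 lay just above control replicate 3, so that the groups did not overlap although their nearest libraries nearly met. Across all libraries the log2 fold change was 3.15 (SE 0.83), and the edgeR test did not call it (adjusted p = 0.0547). Between libraries of the same number the log2 ratio was 4.43, 3.43 and 0.12. Without LPS replicate 3 the log2 fold change was 3.65 and edgeR called the gene (adjusted p = 0.00236). DESeq2 (adjusted p = 0.000195) and the edgeR exact test (adjusted p = 0.00152) also called it with all libraries, and the block did not (adjusted p = 0.0906). In the controls Bmp2 and the sum of macrophage markers were both lowest in replicate 1 and highest in replicate 3, whereas among the LPS cultures replicate 3 had the highest sum and the lowest Bmp2 level, and the part of macrophages in the Bmp2 values was not tested.

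Bmp4 (ENSMUSG00000021835, chr14:46383520-46390669, minus strand), a ligand expressed by gut mesenchyme, was at 36.5, 33.5 and 12.1 CPM in the controls and at 16.4, 13.2 and 9.16 CPM in LPS cultures. Control replicate 3 was below LPS replicates 1 and 2, so the groups overlapped, but within each replicate number the LPS library was the lower one, with log2 ratios of -1.15, -1.34 and -0.40. On the log2 scale its fold change was -1.08 (SE 0.45, edgeR adjusted p = 0.161), not called. With the replicate block it was -0.99 and called (edgeR adjusted p = 0.0279), and it was also called without control replicate 3, at -1.42 (edgeR adjusted p = 0.0274). Bmp7 (ENSMUSG00000008999, chr2:172868012-172940321, minus strand), a ligand that readily pairs with BMP2 or BMP4, was at 8.56, 5.67 and 2.36 CPM in the controls and 3.41, 3.40 and 2.09 CPM in LPS cultures. Its groups overlapped for the same reason, since control replicate 3 was as low as the LPS cultures. The log2 fold change of Bmp7 was -0.90 (SE 0.49) and was not called (edgeR adjusted p = 0.268, and 0.0911 with the block). The log2 ratios within replicate numbers were -1.30, -0.72 and -0.16, all negative and nearest to 0 in replicate 3.

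Bmp5 (ENSMUSG00000032179, chr9:75775364-75900310, plus strand), a ligand of the same subfamily as Bmp7, fell from 2.58, 2.39 and 2.03 CPM in the controls to 1.14, 1.28 and 0.890 CPM in LPS cultures. Every LPS library was below every control library, and replicate 3 was the lowest in both groups. This was a log2 fold change of -1.08 (SE 0.23, edgeR adjusted p = 0.0333). The call was lost without LPS replicate 1 (edgeR adjusted p = 0.11) or 2 (0.0927), or without control replicate 1 (0.127) or 2 (0.138), and with no filter on low counts (0.0562). Of the 4025 exon bases of Bmp5, 1878 are overlapped by exons of Gm26903 on the opposite strand, and the strand setting of the counting is not given in the sources used here, so these counts may hold reads of both genes.

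Levels of different ligands were compared per kilobase (kb) of exon. At rest, Gdf6, a growth and differentiation factor of the BMP family, was at 64.7 ± 35.3 CPM per kb (SD, n = 3), followed by Bmp4 at 12.2 ± 5.92, Bmp6 at 3.39 ± 2.32, Bmp2 at 1.82 ± 0.654, Bmp7 at 1.38 ± 0.772 and Bmp5 at 0.580 ± 0.0706 CPM per kb. Bmp6, Bmp2, Bmp7 and Bmp5 each differed from the next by less than the sum of their SDs, whereas Gdf6 and Bmp4, and Bmp4 and Bmp6, differed by more. In LPS cultures Gdf6 was at 25.6 ± 15.3, Bmp2 at 16.2 ± 12.1, Bmp4 at 5.74 ± 1.60, Bmp6 at 5.25 ± 4.15, Bmp7 at 0.738 ± 0.188 and Bmp5 at 0.274 ± 0.0492 CPM per kb. Bmp2 thus moved from the fourth to the second mean level, with an SD almost as large as its mean. Of the summed level of the 9 tested ligands, Bmp2 took 1.03, 1.69 and 7.20% in the controls and 31.9, 30.7 and 15.9% in LPS replicates 1, 2 and 3, and Gdf6 took 77.0, 77.0 and 70.0% against 46.9, 45.9 and 50.9%. Neither the Bmp2 shares nor the Gdf6 shares overlapped between groups. A share also depends on the other ligands. In replicate 3 Bmp2 was at 2.49 CPM per kb in the control and 2.71 in the LPS culture. The summed level of the 9 ligands was 34.6 and 17.0 there, and Gdf6 was at 24.2 and 8.65. The share of Bmp4 was 14.1, 14.1 and 15.6% in the controls and 8.85, 9.17 and 24.0% in LPS cultures, and LPS replicate 3 had the highest of the 6. The ratio of Bmp2 to Bmp4 per kb was 0.0727, 0.120 and 0.462 in the controls and 3.60, 3.34 and 0.665 in LPS cultures, higher in every LPS library than in any control. The sum of Bmp2, Bmp4, Bmp5 and Bmp7 per kb was 20.2, 18.7 and 8.96 in the controls and 34.6, 26.7 and 7.53 in LPS cultures, which overlapped.

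**Figure D2:**
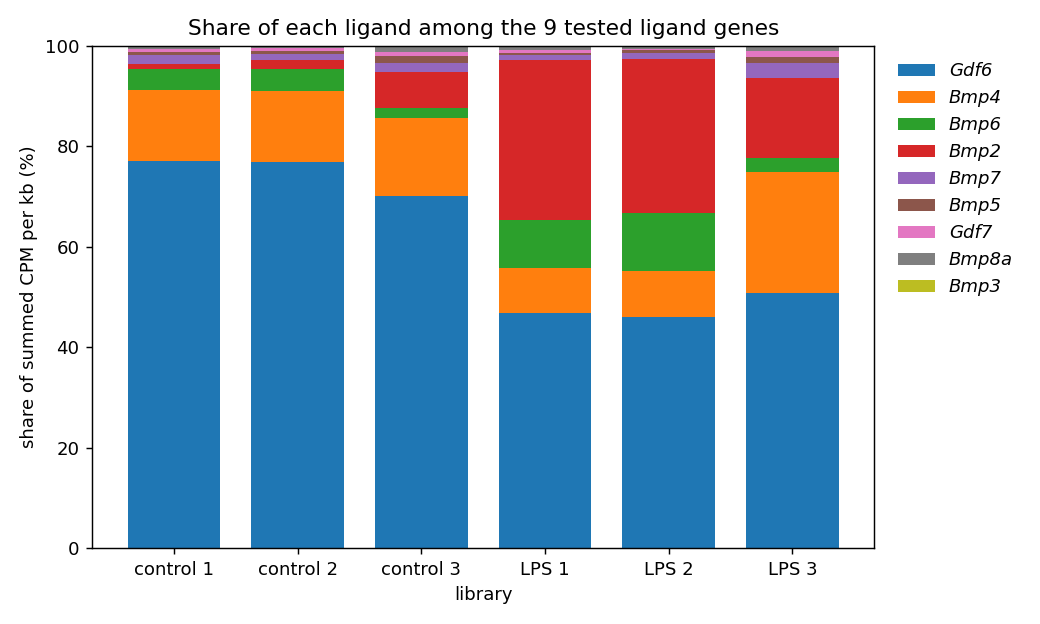
Share of each of the 9 tested ligand genes (percent of their summed CPM per kb of exon, vertical axis) in each of the 6 libraries (horizontal axis). Gdf6 takes the largest share in every library, and the Bmp2 share is larger in each LPS library than in any control library, with LPS replicate 3 between the controls and the other LPS libraries.

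Bmpr1a (ENSMUSG00000021796, chr14:34410734-34503341, minus strand), the type I receptor ALK3, was at 252, 252 and 188 CPM in the controls and 187, 186 and 169 CPM in LPS cultures. The lowest control, replicate 3, was close to the highest LPS library, and the groups did not overlap. The log2 fold change was -0.35 (SE 0.13) and not called (edgeR adjusted p = 0.133), and it was called with the replicate block, at -0.34 (edgeR adjusted p = 0.0391), and without control replicate 3, at -0.46 (adjusted p = 0.0285). Bmpr2 (ENSMUSG00000067336, chr1:59763400-59879014, plus strand), the type II receptor that activates it, was at 159, 163 and 151 CPM in the controls and 194, 215 and 181 CPM in LPS cultures, the opposite direction. Each group was tight and the groups did not overlap. Its log2 fold change was 0.32 (SE 0.088, edgeR adjusted p = 0.0637), not called, and 0.31 with the block, called (edgeR adjusted p = 0.0224). It was also called by DESeq2 (adjusted p = 0.00836) and without LPS replicate 3 (edgeR adjusted p = 0.0298), and so in 3 of 15 alternative settings. The edgeR exact test did not call Bmpr2 (adjusted p = 0.178). Its log2 fold change was 0.21 with upper-quartile scaling (edgeR adjusted p = 0.208) and 0.16 with library size alone (0.31). The ratio of Bmpr1a to Bmpr2 per kb was 4.49, 4.36 and 3.52 in the controls and 2.73, 2.45 and 2.64 in LPS cultures, lower in every LPS library. Per kb, Bmpr1a remained above Bmpr2 in all 6 libraries.

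Grem1 (ENSMUSG00000074934, chr2:113746164-113758646, minus strand), which encodes the antagonist gremlin 1, rose from 519, 435 and 419 CPM in the controls to 1505, 1259 and 712 CPM in LPS cultures. All LPS libraries were above all controls, and LPS replicate 3 rose least. Of the 6 mesenchymal markers 3 were called higher and 0 lower (9.09% and 6.71% of all genes). With the replicate block 3 were higher and 1 was lower (15.4% and 14.9%). The sum of the 6 was 11705 to 12403 CPM in control and 11908 to 12727 CPM in LPS cultures. The part of these markers in the Grem1 result was not tested. The log2 fold change was 1.34 (SE 0.28, edgeR adjusted p = 0.031). Without LPS replicate 3 it was 1.59 (edgeR adjusted p = 0.002). The call was lost without LPS replicate 1 (edgeR adjusted p = 0.0842) or 2 (0.111), or without control replicate 1 (0.094), 2 (0.132) or 3 (0.0718), with log2 fold changes of at least 1.11 throughout. Per kb, Grem1 had the highest level of the 10 genes in both groups, at 110.3 ± 12.9 CPM per kb at rest and 279 ± 97.9 CPM per kb upon LPS (SD, n = 3).

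Nog (ENSMUSG00000048616, chr11:89300638-89302332, minus strand), which encodes the antagonist noggin, moved the other way and fell from 15.2, 12.8 and 10.1 CPM in the controls to 3.31, 2.40 and 4.45 CPM in LPS cultures. The groups were well apart, and LPS replicate 3 fell least. Noggin thus had a log2 fold change of -1.90 (SE 0.28, edgeR adjusted p = 0.0113). The call was lost without control replicate 1 (edgeR adjusted p = 0.0504), control replicate 2 (0.0602) or LPS replicate 1 (0.0529), and held in the other 3 leave-outs. The per kb ratio of Grem1 to Nog was 14.0, 13.9 and 16.9 in the controls and 186, 215 and 65.4 in LPS cultures. The ratio was higher in every LPS library, least so in LPS replicate 3. Bmp5 and Nog were lower in the same libraries as the 7 smooth muscle markers, and the part of that in their change was not tested.

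**Figure D3:**
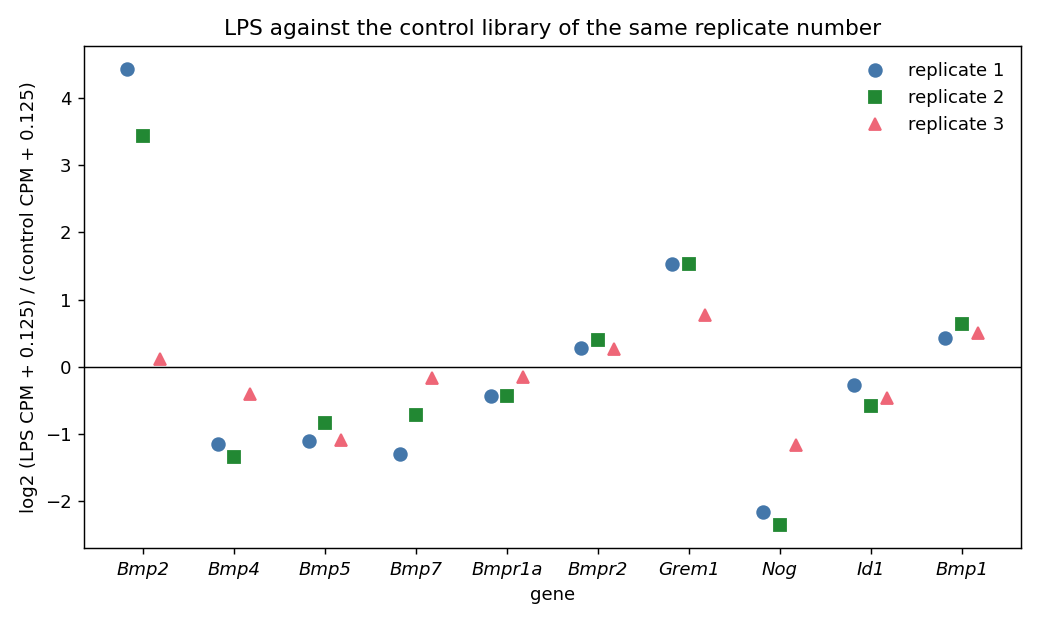
Log2 ratio of the LPS library to the control library of the same replicate number (vertical axis, a small constant added to both) for the 10 BMP genes (horizontal axis). Symbols are the 3 replicate numbers, which agree in sign for each gene, and replicate 3 is nearest to 0 for Bmp2, Bmp4, Bmp7, Bmpr1a, Bmpr2, Grem1 and Nog.

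Id1 (ENSMUSG00000042745, chr2:152736251-152737410, plus strand), a direct SMAD target often read as a sign of BMP signaling, was at 35.5, 34.3 and 30.3 CPM in the controls and 29.3, 23.0 and 21.9 CPM in LPS cultures. The groups did not overlap, with LPS replicate 1 just below control replicate 3. Its log2 fold change was -0.43 (SE 0.14), not called by edgeR (adjusted p = 0.0942) and called with the replicate block, at -0.44 (adjusted p = 0.0251). Bmp1 (ENSMUSG00000022098, chr14:70474558-70520234, minus strand), the procollagen protease, rose from 494, 432 and 488 CPM in the controls to 663, 674 and 692 CPM in LPS cultures. Both groups were tight, and replicate 3 did not stand apart for this gene. Bmp1 had a log2 fold change of 0.52 (SE 0.087, edgeR adjusted p = 0.0161). The call was lost without LPS replicate 1 (edgeR adjusted p = 0.062) or 2 (0.0742), or without control replicate 1 (0.0676) or 2 (0.086). Per kb at rest, the order of the 10 genes was Grem1, Bmp1 (53.2 ± 3.83 CPM per kb), Bmpr1a (36.3 ± 5.78), Id1 (28.7 ± 2.37), Bmp4, Bmpr2 (8.79 ± 0.340), Nog (7.49 ± 1.49), Bmp2, Bmp7 and Bmp5. Bmpr1a and Id1 did not differ by more than the sum of their SDs, and neither did the neighbors among Bmp4, Bmpr2 and Nog or among Bmp2, Bmp7 and Bmp5.

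The 10 genes were then set beside the wider pathway. Of 66 listed genes 56 were tested, 7 were called higher and 5 lower, and their median log2 fold change was -0.19. Over all genes tested 9.09% were called higher and 6.71% lower. The replicate block gave 13 higher and 14 lower (15.4% and 14.9% of all genes), and the libraries without replicate 3 of both groups, an alternative chosen after seeing the data, 21 higher and 19 lower (22.6% and 20.4%). Of the 46 tested genes other than the 10, edgeR called 5 higher and 3 lower. Among the 9 tested ligands only Bmp5 was called, and with the block 3 were lower, namely Bmp4, Bmp5 and Gdf6. Gdf6 was at 313, 288 and 85.5 CPM in the controls and 136, 104 and 30.6 CPM in LPS cultures, overlapping because control replicate 3 was low. Its log2 fold change was -1.34 (SE 0.69, edgeR adjusted p = 0.239), and -1.38 with the block (adjusted p = 0.00154). The ligands Bmp8b, Bmp10, Bmp15, Gdf2 and Gdf5 were too low to be tested.

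None of the 7 receptors was called by the edgeR quasi-likelihood test without the block, and at an unadjusted p under 0.05 there were 3 higher and 1 lower, where 16.1% and 16.0% of all tested genes were. DESeq2 called 2 higher and 0 lower (13.7% and 11.0% of all tested genes), the edgeR exact test 1 and 0 (9.39% and 7.99%) and limma-voom 0 and 0 (8.21% and 6.05%). With the block 3 were higher (Bmpr1b, Acvrl1 and Bmpr2) and 1 was lower (Bmpr1a), where 15.4% and 14.9% of all tested genes were. The type I receptor gene Bmpr1b was at 2.29, 1.77 and 1.12 CPM in the controls and 8.35, 8.41 and 1.83 CPM in LPS cultures, with LPS replicate 3 within the control range. Its log2 fold change was 1.84 (SE 0.62, edgeR adjusted p = 0.102, and 0.0261 with the block). Acvrl1, the type I receptor ALK1 of endothelium, was at 51.9, 48.1 and 31.8 CPM and 80.3, 70.8 and 52.8 CPM, with a log2 fold change of 0.63 (SE 0.24, edgeR adjusted p = 0.128, and 0.00516 with the block). Every LPS library was above every control for Acvrl1. The co-receptor gene Eng was called with the block, at 0.42 (edgeR adjusted p = 0.00947, and 0.387 without the block), while Rgma and Rgmb were not called in either fit. The 4 endothelial markers summed to 10.9 to 17.7 CPM in the controls and 8.05 to 20.7 CPM in LPS cultures, and of the 3 tested 0 were called without the block and 2 were higher with it. Their part in the values of Acvrl1 and Eng was not tested. Without the block 0 of the 3 tested co-receptors reached an unadjusted p under 0.05, and DESeq2, the exact test and limma-voom called 0.

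The antagonists and modulators were called in both directions, with Grem1 higher and Nog and Nbl1 lower. Nbl1, which encodes the DAN antagonist, fell from 168, 162 and 161 CPM to 111, 105 and 115 CPM, with a log2 fold change of -0.57 (SE 0.068, edgeR adjusted p = 0.00613). Each LPS library was below each control for Nbl1, and its call was kept in 15 of 15 alternative settings. With the block, Chrdl2 (1.30, edgeR adjusted p = 0.0335) and Fstl1 (0.55, 0.0145) were also higher, and Chrd (-0.87, 0.0258) and Chrdl1 (-1.62, 0.00983) lower, values that missed the threshold without it (edgeR quasi-likelihood adjusted p of 0.0534, 0.063, 0.0787 and 0.0677). Without the block, DESeq2 (adjusted p of 0.00629 to 0.0291) and the edgeR exact test (0.0133 to 0.0394) called these 4 genes in the same directions. Chrd encodes chordin, which binds BMPs and is a substrate of BMP1. Sost, Sostdc1 and Cer1 were too low to be tested.

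**Figure D4:**
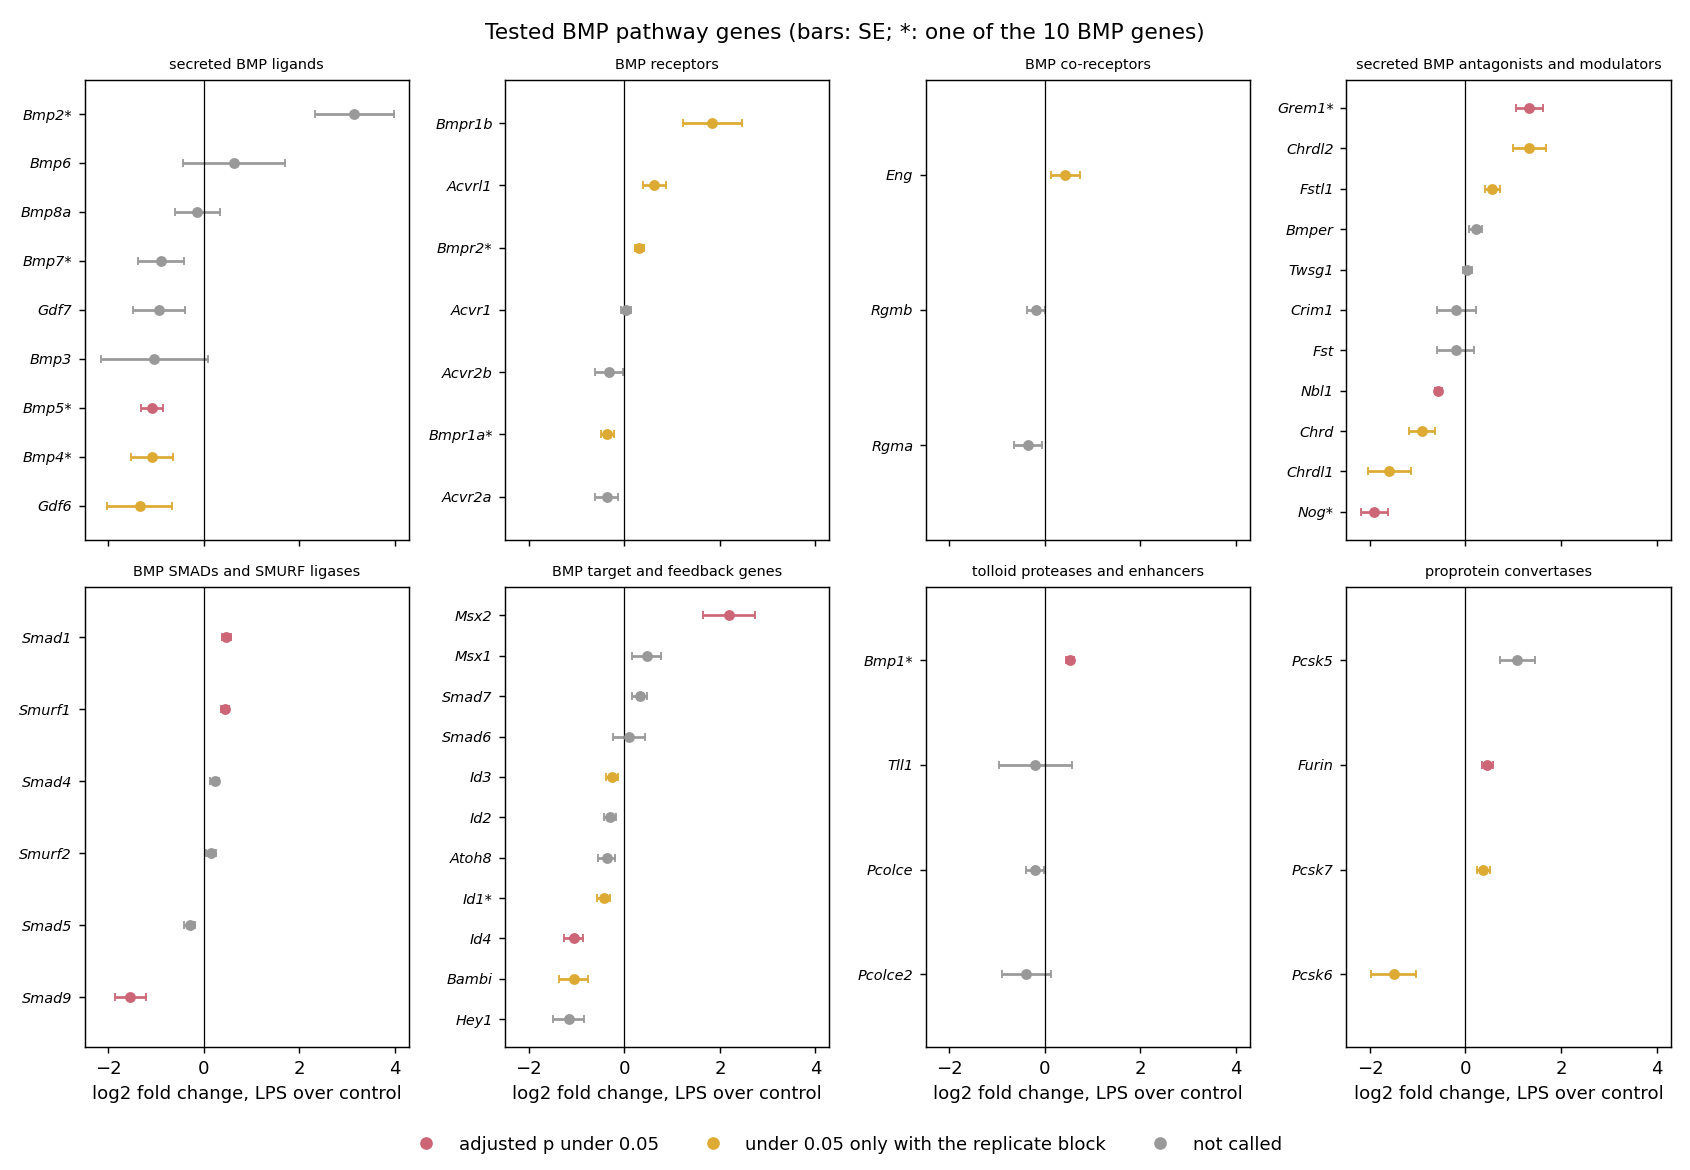
Log2 fold change of LPS over control (horizontal axis, bars are the SE) for tested BMP pathway genes, by list. Red marks an edgeR adjusted p under 0.05, yellow an adjusted p under 0.05 only with the replicate block, and grey neither; an asterisk marks the 10 BMP genes. Red points lie on both sides of 0 among the antagonists, where Grem1 is positive and Nog and Nbl1 negative.

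Among the signal transducers, Smad1 rose from 27.6, 29.8 and 30.8 CPM in the controls to 38.1, 39.3 and 44.4 CPM in LPS cultures, with a log2 fold change of 0.47 (SE 0.095, edgeR adjusted p = 0.0276). Smad9, the related receptor SMAD that transmits more weakly, fell from 19.7, 18.6 and 8.89 CPM to 5.93, 5.46 and 4.87 CPM (-1.54, SE 0.32, edgeR adjusted p = 0.0302). Smurf1, the ubiquitin ligase that marks BMP SMADs and receptors for degradation, rose from 129, 129 and 141 CPM to 189, 189.5 and 167 CPM (0.45, SE 0.084, edgeR adjusted p = 0.0212). The groups did not overlap in any of these 3 genes. Leaving out replicate 1 or 2 of the controls, or replicate 1 or 2 of the LPS cultures, ended the calls of Smad1 (edgeR adjusted p of 0.103, 0.114, 0.0676 and 0.0924), Smad9 (0.103, 0.121, 0.0908 and 0.113) and Smurf1 (0.0982, 0.114, 0.082 and 0.0927), and leaving out LPS replicate 3 that of Smad9 (0.0533). The call of Smad1 was also lost with no filter on low counts (edgeR adjusted p = 0.0506), that of Smurf1 with upper-quartile scaling (0.0541) or library size alone (0.0672), and that of Smad9 with limma-voom (0.0763). Smad4, Smad5 and Smurf2 were not called.

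Of the 11 target and feedback genes, 1 was called higher (Msx2) and 1 lower (Id4), where 9.09% and 6.71% of all tested genes were. Their median log2 fold change was -0.30, against -0.02 over all genes tested. Id4 fell from 5.85, 4.60 and 6.45 CPM to 2.87, 2.40 and 2.83 CPM (-1.06, SE 0.20, edgeR adjusted p = 0.0215), with no overlap between groups. The other Id genes had log2 fold changes of -0.43 (Id1), -0.30 (Id2) and -0.26 (Id3), none called, with edgeR adjusted p of 0.0942, 0.139 and 0.207. With the block, Id1, Id3, Id4 and Bambi, a pseudoreceptor that dampens signaling, were lower, with edgeR adjusted p of 0.0251, 0.0374, 0.013 and 0.0167. The block called 14.9% of all tested genes lower. Bambi (edgeR adjusted p = 0.0714 without the block) was also called lower without it by DESeq2 (0.0131), the exact test (0.018) and limma-voom (0.0489), and with upper-quartile scaling (0.0427) or library size alone (0.0359). Library size alone called Id2 (0.0334) and Id3 (0.0428) lower as well. Msx2, a homeobox target, rose from 0.593, 0.443 and 0.992 CPM to 4.0, 4.07 and 1.31 CPM (2.20, SE 0.55, edgeR adjusted p = 0.047), but the block ended its call (adjusted p = 0.0623). LPS replicate 3 was nearest to the controls for Msx2. Single libraries also decided these calls: that of Id4 was lost without LPS replicate 1 (edgeR adjusted p = 0.0736) or 2 (0.0927), or without control replicate 1 (0.0898) or 2 (0.0578), and that of Msx2 without any library except LPS replicate 3 (adjusted p of 0.0577 to 0.168). Msx2 was also not called with upper-quartile scaling (edgeR adjusted p = 0.0516), with no filter (0.0525) or by limma-voom (0.0814).

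Among the proteases, Bmp1 was the 1 of 4 tested tolloid genes that was called, and Tll1, Pcolce and Pcolce2 were not. Of the 4 convertases that cut BMP precursors, Furin rose from 161, 164 and 205 CPM to 249, 239 and 239.6 CPM (0.46, SE 0.11, edgeR adjusted p = 0.0458), and every LPS library was above every control. Its call was lost without any library except control replicate 3 (adjusted p of 0.0577 to 0.173), and with upper-quartile scaling (0.0699), library size alone (0.0839), no filter (0.0755) or the edgeR exact test (0.0511). With the block Pcsk7 was also higher (0.36, edgeR adjusted p = 0.038, against 0.122 without it) and Pcsk6 lower (-1.42, 0.00541, against 0.0884). Without the block Pcsk6 was called lower by DESeq2 (adjusted p = 0.0118) and the edgeR exact test (0.017), but not by limma-voom (0.14). A further 16 pathway genes at 20 CPM or more were called in neither fit, with log2 fold changes from -0.37 (Acvr2a) to 0.63 (Bmp6). Bmp6, a ligand, was at 18.8, 18.2 and 2.77 CPM in the controls and 30.8, 28.8 and 1.83 CPM in LPS cultures, so that replicate 3 was low in both groups and the log2 ratios within numbers were 0.71, 0.66 and -0.56. The rest of these 16 were Acvr1, Rgma, Rgmb, Twsg1, Bmper, Crim1, Fst, Smad5, Smad4, Smurf2, Id2, Smad7, Tll1 and Pcolce.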

How the data were processed

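RNA was isolated from 6 cultures and poly(A) libraries were prepared with a kit that marks strand. Raw counts per gene were deposited by the authors. Per the labels, the authors trimmed reads with cutadapt 1.15, removed contaminants with Bowtie2 2.3.3.1, aligned to GRCm38 with STAR 2.5.2b and used SAMtools 1.5 and featureCounts 1.5.3, with a strand setting not given in the sources used here. A deposited table of the whole series held the same counts and was not used.

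The members and gene lists were chosen with earlier results of these data known. Genes were filtered with filterByExpr (minimum count 10, minimum total 15), scaled with TMM factors (0.917 to 1.08) and tested with the two-sided quasi-likelihood F-test of edgeR 4.0.16 (R 4.3.3), with group as the only term and Benjamini-Hochberg adjustment over 15226 genes. The SE is the log2 fold change divided by the square root of F. CPM per kb used merged exon lengths of GENCODE M21, from which coordinates also come. Named were the 10 genes, the other pathway genes called with or without the block, and those at 20 CPM or more. A pathway gene that entered the tests and counts is not reported here by itself. Deviations from the group means correlated at r = 0.54, 0.35 and 0.62 between same-numbered libraries, all above 0.1, so the numbers were taken to pair the samples. This pairing comes from the data and not from the labels, and it sets replicate 3 apart more than it separates 1 from 2: control replicate 1 and LPS replicate 2 correlated at 0.43 and control replicate 2 and LPS replicate 1 at 0.35. Alternatives were other scalings, filters and tests (DESeq2 1.42.0, the edgeR exact test, limma-voom with limma 3.58.1), the block and each library left out.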

Additional observations from a re-analysis of the deposited data

How the results depend on the processing

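None of the 10 genes changed direction in any of 15 alternative settings. Leaving out replicate 1 or 2 of either group took the calls over all tested genes from 1384 higher and 1022 lower to between 379 and 619 higher and 112 and 224 lower. Without control replicate 3 they were 1174 and 1039, and without LPS replicate 3 they were 1964 and 1426. Of the 10 genes, 2 were called higher and 2 lower in the main fit (9.09% and 6.71% of all genes). DESeq2 called 4 of them higher (13.7% of all genes) and the replicate block 5 lower (14.9%). A test without the low-count filter called 1 lower, and single leave-outs 0 to 4 higher and 0 to 4 lower. Without replicate 3 of both groups, chosen after seeing the data, 4 were higher and 6 lower (22.6% and 20.4%). Of the pathway genes, 7 higher and 5 lower became 4 higher with upper-quartile scaling, 4 higher unfiltered, 9 lower with library size alone, 13 higher and 10 lower with DESeq2, 10 lower with the exact test, 13 higher and 14 lower with the replicate block, 1 to 14 higher and 1 to 12 lower with single leave-outs, and 21 higher and 19 lower without replicate 3 of both groups. The calls over all tested genes moved too, from 1384 higher and 1022 lower in the main fit. Upper-quartile scaling gave 1050 and 1589, library size alone 986 and 2054, and no filter 1114 and 816 of 24879 genes. DESeq2 gave 2079 and 1673, the exact test 1429 and 1216, and the block 2343 and 2273. The block changed no other call among the members and pathway genes than those given above. Upper-quartile scaling and library size alone moved the median over all genes (log2 fold change) from -0.02 to -0.12 and -0.18, and the share of calls that were higher from 57.5% to 39.8% and 32.4%. Under these scalings Acvr1 turned to -0.068 and -0.12 and Twsg1 to -0.067 and -0.12, and with library size alone Smurf2 turned to -0.0020. Leaving out single libraries gave -0.023 to 0.14 for Acvr1, -0.031 to 0.093 for Twsg1, -0.42 to 0.14 for Crim1, -0.54 to 0.10 for Fst and -0.63 to 0.24 for Tll1. The cause of these differences was not tested. Depth limits the genes at a few CPM or less, Bmp5 among them.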
